A study of Mus musculus with 2 samples.

Results

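The neuregulins and the ErbB receptors are a family of ligands and receptor tyrosine kinases. Its 8 members here are the ligand genes *Nrg1*, *Nrg2*, *Nrg3* and *Nrg4* and the receptor genes *Erbb2*, *Erbb3*, *Erbb4* and *Egfr*, chosen by symbol, and all 8 were found among the 32286 features of the count table. Neuregulins carry an EGF-like domain, and neuregulins 1 and 2 bind ErbB3 and ErbB4, whereas neuregulins 3 and 4 bind ErbB4. EGFR binds EGF, TGF-alpha and other ligands, of which betacellulin also binds ErbB4. ErbB2 has no known ligand of its own and acts as the partner of the other receptors, and ErbB3 has little kinase activity and signals through its partner. In peripheral nerve, neuregulin 1 on axons is known to guide the survival, growth and myelination of Schwann cells, and neuregulin 4 is known as a factor secreted by fat cells.

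RNA of single nuclei was counted in 1 library of the vagus nerve ganglia (the joined nodose and jugular ganglia) of female mice and 1 library of male mice. The female library pooled 14 ganglia of 7 mice and the male library 16 ganglia of 8 mice. All were C57BL/6J mice with a Rosa26-floxed-STOP-Cas9-eGFP allele on a standard chow diet, bought at 8 to 9 weeks of age, and all had received a retrograde adeno-associated virus with Cre in the liver 4 weeks before. No group lacked the allele or the virus, so neither can be compared here. With 1 pooled library of each sex, differences of sex cannot be told apart from those of the libraries, and no p-value is given. Nuclei of the female library (3791) had a median of 2381 unique molecular identifiers (UMIs, single counted RNA molecules) and those of the male library (4923) a median of 2658. 8 barcode sequences occurred in both libraries.

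Nuclei were clustered without the members, and clusters were put into 12 classes by marker genes. A level is the number of UMIs of a gene per 10000 UMIs summed over the nuclei of a class, its 95% Poisson interval covers counting error only, and the values of both libraries show the spread between samples. Neuron-like nuclei numbered 2283, myelinating Schwann cell-like nuclei 1242, satellite glia-like nuclei 1049, peripheral glia-like nuclei 334, fibroblast-like nuclei 1048, barrier fibroblast-like nuclei 521, endothelial cell-like nuclei 409, macrophage-like nuclei 272, adipocyte-like nuclei 166 and cerebellar granule cell-like nuclei 401. The classes called Col25a1-led (673 nuclei) and Pou1f1-led (316 nuclei), each after 1 of its 10 leading genes, stayed unnamed. The Pou1f1-led class did so because inhibitory neuron and granule cell markers were also high in it. Its first leading gene was *Adarb2*. Cerebellar granule cells and pituitary cells are not cells of these ganglia. The classes were unevenly shared: granule cell-like nuclei were 10.0% of the female library (379 nuclei) and 0.447% of the male library (22 nuclei), and peripheral glia-like nuclei were 7.07% and 1.34%. Macrophage-like nuclei, a class that should lack *Nrg3*, *Nrg4* and *Erbb3*, serve as the background level of RNA from other cells. A class is said to lie above another where the lower of its library values exceeds the higher of the other's, and otherwise the classes are said to overlap.

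Of the ligands, *Nrg1* (chromosome 8, 31814551 to 32884029 of mm10, minus strand) had 27370 UMIs in all. It was a gene of neurons among the classes proper to the ganglia, at 7.87 UMIs per 10000 in neuron-like nuclei (7.76 to 7.98), with 8.85 in female and 7.44 in male nuclei. Apart from the Pou1f1-led nuclei, the other classes lay between 0.50 in Col25a1-led and 1.76 in macrophage-like nuclei, and neuron-like nuclei lay above every one of them. A UMI of *Nrg1* was found in 74.2% of neuron-like nuclei (72.3 to 75.9, Clopper-Pearson) and in 13.2% of macrophage-like nuclei. At an equal depth of 1000 UMIs per nucleus these shares were 38.3% and 8.49%.

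The highest *Nrg1* level was not in neurons but in the Pou1f1-led nuclei, at 25.4 UMIs per 10000 (24.6 to 26.1), with 19.5 in female and 50.8 in male nuclei. Dividing these nuclei again, also without the members, gave 6 sub-clusters. Sub-cluster 1 (70 nuclei, 17 of them female) and sub-cluster 5 (42 nuclei, 40 of them female) both carried the pituitary markers, with growth hormone (*Gh*) at 8.16 and prolactin (*Prl*) at 12.8 UMIs per 10000 in the first and at 1.96 and 41.8 in the second. *Nrg1* reached 96.4 UMIs per 10000 in sub-cluster 1 (92.2 to 100.7), with 83.0 in female and 100.3 in male nuclei. In sub-cluster 5 it was 91.8 (87.4 to 96.4), with 92.1 in the female nuclei. Every one of these 112 pituitary cell-like nuclei held a UMI of *Nrg1*, with a median of 24 per nucleus, and together they gave 75.9% of the class's *Nrg1* UMIs. Both libraries therefore showed a level above that of every neuron-like cluster.

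The other sub-clusters were far lower in *Nrg1*. They were also lower in *Pou1f1*, at or below 0.466 UMIs per 10000 against 2.77 in sub-cluster 1 and 4.48 in sub-cluster 5. Sub-cluster 2 (64 nuclei), which carried the inhibitory neuron gene *Gad1*, had *Nrg1* at 9.06, and sub-cluster 6 (34 nuclei, 32 of them male), marked by the hormone precursor gene *Pomc* at 25.8, had it at 4.96 UMIs per 10000. The *Pomc* nuclei differed from the *Gh* and *Prl* nuclei in *Nrg3* as well, which stood at 25.4 UMIs per 10000 in sub-cluster 6 against 1.36 in sub-cluster 1 and 1.18 in sub-cluster 5. The *Prl*-rich sub-cluster 5 had *Erbb4* at 6.83 (5.67 to 8.16) and sub-cluster 1 at 0.680 (0.372 to 1.14), although the female nuclei of sub-cluster 1 had 2.54 and its male nuclei 0.126.

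**Figure D1:**
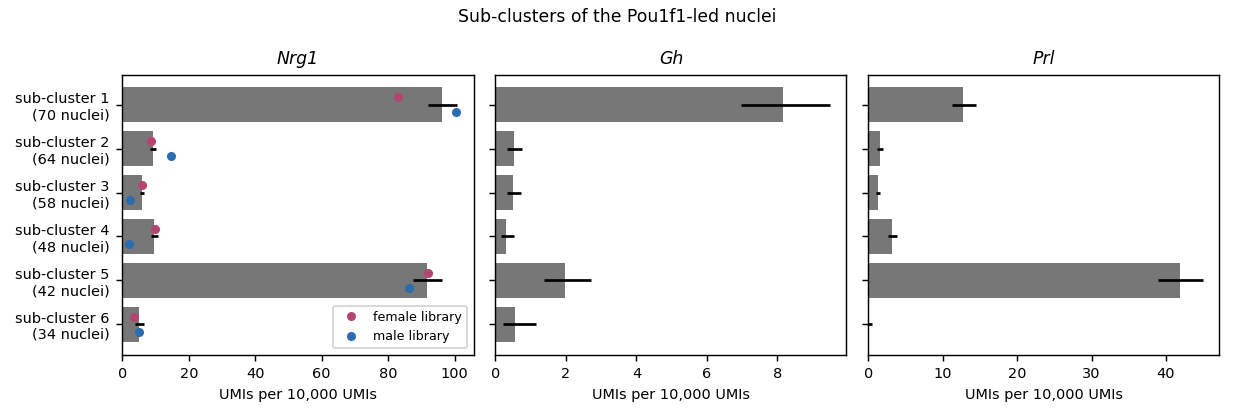
Levels of *Nrg1*, *Gh* and *Prl* (UMIs per 10000 UMIs, linear axes) in the 6 sub-clusters of the Pou1f1-led nuclei; bars are both libraries together with 95% Poisson intervals, and points are the female and male libraries. *Nrg1* stands at 96.4 and 91.8 in sub-clusters 1 and 5, where *Gh* and *Prl* are high, and between 4.96 and 9.60 in the others.

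*Nrg2* (chromosome 18, 36017652 to 36197380, minus strand) was highest in granule cell-like nuclei, at 4.27 UMIs per 10000 (3.91 to 4.66). Female nuclei of this class had 4.27 and male nuclei 4.28, the latter from 20 UMIs. Neuron-like nuclei had 1.47 (1.64 female, 1.40 male) and macrophage-like nuclei 1.26 (0.986 to 1.59). Pou1f1-led nuclei had 1.69, with 1.98 in female and 0.456 in male nuclei, and these 3 classes overlapped. The neuron-like level was above the macrophage-like one within each library, although by little in the female library, where they were 1.64 and 1.54. Every remaining class lay at or below 0.447. Macrophage-like nuclei (1.54 and 1.0) lay above these too, as against 0.127 and 0.154 in Schwann cell-like nuclei.

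*Nrg3* (chromosome 14, 38368952 to 39473088, minus strand) was the most counted member, with 93492 UMIs. It stood at 33.0 UMIs per 10000 in neuron-like nuclei (35.4 female, 32.0 male), at 13.8 in granule cell-like nuclei (14.0 and 9.20) and at 10.2 in Pou1f1-led nuclei (9.74 and 12.3). Granule cell-like and Pou1f1-led nuclei overlapped, and both lay above the 9 other classes, which ran from 1.26 in fibroblast-like to 2.58 in peripheral glia-like nuclei with the macrophage-like level at 1.51. *Nrg3* was detected in 89.9% of neuron-like nuclei (74.1% at 1000 UMIs) and in 22.1% of macrophage-like nuclei (9.96%). The gene is overlapped on the other strand by *Gm20641*, *Nrg3os* and *Gm20642*, and since no source used here states that counting used strand, reads of these genes could not be told apart. The same holds for *Nrg2* with 4930471G03Rik, *Nrg4* with *Fbxo22*, *Erbb2* with *Mien1* and *Egfr* with *Egfros*, and *Gm16076* overlaps *Erbb4* on its own strand, while *Nrg1* and *Erbb3* overlap no other gene.

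Both genes varied between the neuron-like clusters. Each cluster was given the kind, nodose or jugular, whose markers had the higher mean log2 fold, which in cluster 7 was 0.512 against 0.305. A list of sympathetic neuron markers, which named no kind, scored above the nodose list in cluster 13 (0.714 against 0.616). It also did so in cluster 7 (0.70 against 0.512), but not in cluster 14 (0.932 against 1.03). *Nrg1* was highest, at 9.84 UMIs per 10000, in the nodose-type cluster 13 (9.69 female, 9.91 male), followed by 7.88 and 7.09 in the jugular-type clusters 4 and 10 and by 5.72 and 5.70 in the nodose-type clusters 14 and 7. *Nrg3* was at 37.6 in cluster 13, 36.9 in cluster 4, 31.4 in cluster 10, 24.8 in cluster 7 and 20.5 in cluster 14. Clusters 4 and 13 overlapped in *Nrg3*, with 40.0 and 35.0 against 33.0 and 39.6 in the female and male libraries, and the levels of cluster 14 (18.7 and 20.9) lay below those of every other neuron-like cluster in both libraries. Nodose-type clusters thus held both the highest *Nrg1* level and the lowest *Nrg3* level. Median depth was 16150 UMIs per nucleus in cluster 13, 13680 in cluster 4, 7622 in cluster 14, 4220 in cluster 10 and 1994 in cluster 7. The part of depth in these levels was not tested. Both genes were found together in 1576 of 2283 neuron-like nuclei.

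The ratio of *Nrg1* to *Nrg3* UMIs was lowest in granule cell-like nuclei, at 0.0939, and highest in Pou1f1-led nuclei, at 2.48 (2.01 female, 4.12 male). In neuron-like nuclei it was 0.239 (0.250 and 0.233), which overlapped with peripheral glia-like nuclei (0.419 and 0.246). The remaining classes lay between 0.30 and 1.16, and several turned between libraries, such as Schwann cell-like nuclei (1.70 and 0.551) and macrophage-like nuclei (0.385 and 1.83). In classes with little of either gene, the *Nrg1* sum often came from single nuclei: in female Schwann cell-like nuclei 1 nucleus held 130 of 221 UMIs, and in male macrophage-like nuclei 1 nucleus held 56 of 84. Without that nucleus the female Schwann cell-like level went from 1.75 to 0.722 and the male macrophage-like level from 2.90 to 0.983. No doublet caller was run here, and the part of doublets in these values was not tested.

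*Nrg4* (chromosome 9, 55220222 to 55326844, minus strand) had the sharpest pattern of the family. Adipocyte-like nuclei had 8.73 UMIs per 10000 (8.02 to 9.48), with 9.07 in female and 7.62 in male nuclei. The next class, granule cell-like nuclei, had 0.247, or 35.3-fold less, and neuron-like nuclei had 0.214. *Nrg4* was detected in 63.3% of adipocyte-like nuclei (46.4% at 1000 UMIs) and in 0.735% of macrophage-like nuclei. The 166 nuclei of this class carried adipocyte markers at a summed 56.7 UMIs per 10000 in female and 47.2 in male nuclei, against 1.80 and 1.11 in macrophage-like nuclei.

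**Figure D2:**
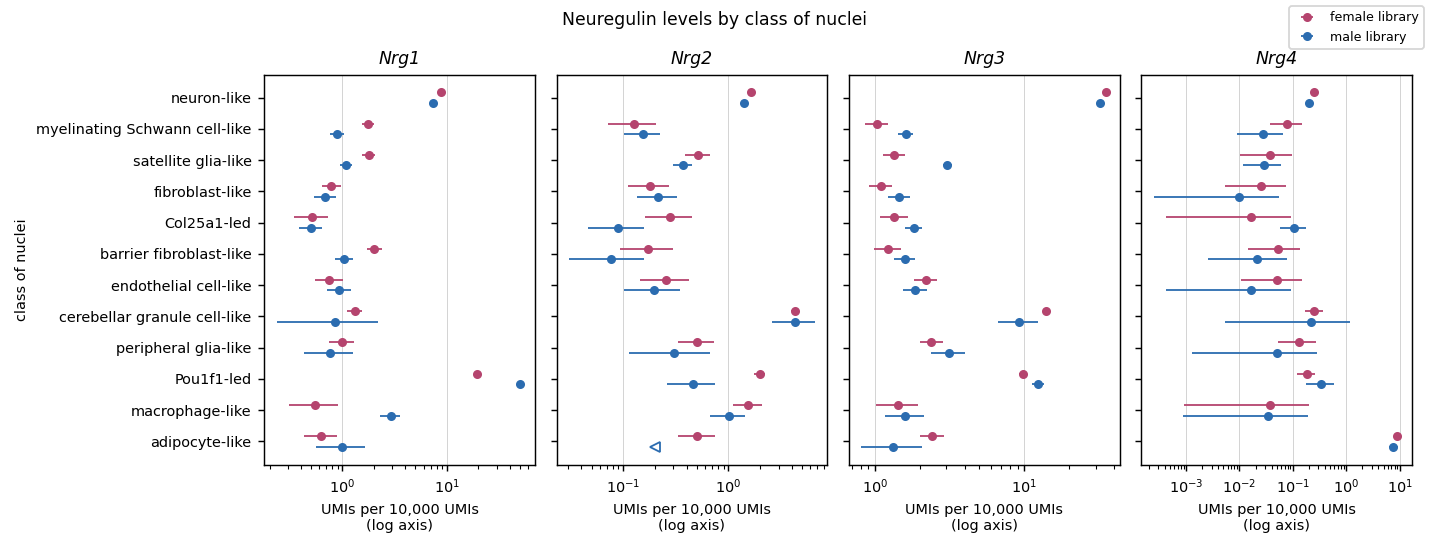
Levels of *Nrg1*, *Nrg2*, *Nrg3* and *Nrg4* (UMIs per 10000 UMIs, log axes) in 12 classes of nuclei, with a point and 95% Poisson interval for each library; an open triangle marks the level of 3 UMIs where none was counted. *Nrg3* is highest in neuron-like nuclei at 33.0, *Nrg1* in Pou1f1-led nuclei at 25.4, *Nrg2* in granule cell-like nuclei at 4.27 and *Nrg4* in adipocyte-like nuclei at 8.73.

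The receptors had low levels in neuron-like nuclei, and their highest levels lay in peripheral glia-like, adipocyte-like and Col25a1-led nuclei. *Erbb3* (chromosome 10, 128567523 to 128589652, minus strand), the neuregulin receptor of Schwann cells, was highest in peripheral glia-like nuclei, at 2.66 UMIs per 10000 (2.64 female, 2.71 male). Satellite glia-like nuclei had 1.5 (1.62 and 1.45) and Schwann cell-like nuclei 1.33 (1.33 and 1.34). Each of these glial classes lay above the next, with satellite glia-like and Schwann cell-like nuclei closest. Of the peripheral glia-like nuclei 268 of 334 were female, and of the satellite glia-like cluster 2 546 of 603 were male. With genes scaled within each library before clustering, these nuclei mixed. Cluster 7 then held 291 nuclei of cluster 2 and 179 peripheral glia-like ones, and cluster 13 held 250 and 142. By its markers this cluster 7 was named satellite glia-like and this cluster 13 non-myelinating Schwann cell-like. No peripheral glia-like class remained there to compare, so its place above satellite glia-like nuclei in *Erbb3* was not tested in that clustering. The remaining classes lay at or below 0.414, with macrophage-like nuclei at 0.124 and neuron-like nuclei at 0.144 (0.101 and 0.163). *Erbb3* was detected in 35.0%, 33.7% and 23.6% of the 3 glial classes and in 2.57% of macrophage-like nuclei, and at 1000 UMIs in 23.8%, 15.6%, 11.2% and 1.85%.

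*Erbb2* (chromosome 11, 98412470 to 98437716, plus strand), which encodes the partner of ErbB3, had 301 UMIs in all. Its highest levels were also in the glia, at 0.285 UMIs per 10000 in peripheral glia-like nuclei (0.176 to 0.435), 0.224 in Schwann cell-like nuclei and 0.199 in satellite glia-like nuclei, followed by 0.164 in fibroblast-like nuclei. Each of these overlapped with the next, and fibroblast-like nuclei (0.204 and 0.118) lay above the class after them. Neuron-like nuclei had 0.0151 on 40 UMIs, and macrophage-like nuclei had 0 UMIs, which allows a level of up to 0.110 in female and 0.104 in male nuclei when 3 UMIs are taken as the limit. The ratio of *Erbb2* to *Erbb3* UMIs was 0.107 in peripheral glia-like, 0.133 in satellite glia-like and 0.167 in Schwann cell-like nuclei, against 0.818 in fibroblast-like (0.512 to 1.30) and 1.27 in Col25a1-led nuclei (0.610 to 2.68). Both transcripts were found in 26 of 1242 Schwann cell-like and 26 of 1049 satellite glia-like nuclei, a number that this depth limits.

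*Erbb4* (chromosome 1, 68032186 to 69108059, minus strand), a receptor that signals on its own after binding neuregulins, had a pattern unlike *Erbb3*. Adipocyte-like nuclei had 8.88 UMIs per 10000 (8.32 female, 10.7 male), granule cell-like nuclei 5.80 (5.87 and 4.07), Schwann cell-like nuclei 3.36 (3.47 and 3.28) and Pou1f1-led nuclei 3.15 (3.34 and 2.34). Adipocyte-like nuclei lay above granule cell-like nuclei, and these above Schwann cell-like nuclei, whereas Schwann cell-like and Pou1f1-led nuclei overlapped. Neuron-like nuclei had the lowest level of all classes, at 0.0969 (0.167 and 0.0663), against 0.213 in macrophage-like nuclei (0.330 and 0.104). They overlapped with macrophage-like, fibroblast-like, barrier fibroblast-like, endothelial cell-like and Col25a1-led nuclei. *Erbb4* was detected in 67.5% of adipocyte-like nuclei (46.4% at 1000 UMIs) and 2.57% of macrophage-like nuclei (1.48%). A UMI of it was found in 122 of 2283 neuron-like and 7 of 272 macrophage-like nuclei, at median depths of 7224 and 1799.5 UMIs per nucleus.

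Adipocyte-like nuclei were the class with the most *Nrg4* and the most *Erbb4*. Both were found in 91 of 166 of these nuclei and either in 126. *Nrg2* had 25 UMIs in the 123 female adipocyte-like nuclei (0.507 UMIs per 10000) and 0 in the 43 male ones. *Nrg1* in this class was at 0.714, below neuron-like and Pou1f1-led nuclei, and *Nrg3* at 2.16, below neuron-like, granule cell-like and Pou1f1-led nuclei. Since the data bear on this pair, the RefSeq windows of 250 bases before the transcript start of *Nrg4* and *Erbb4* are printed here, with that of *Egfr*, a receptor gene of other cells, for comparison (GRCm38.p6, each 5′ to 3′ on the strand of the gene). Capitals mark matches on either strand to GGGCGG (the GC box), CCAAT (the CCAAT box), TATAAA (the TATA box) or AGGTCA (the half-site of nuclear receptors).
*Nrg4*, chr9:55283626-55283875, minus strand: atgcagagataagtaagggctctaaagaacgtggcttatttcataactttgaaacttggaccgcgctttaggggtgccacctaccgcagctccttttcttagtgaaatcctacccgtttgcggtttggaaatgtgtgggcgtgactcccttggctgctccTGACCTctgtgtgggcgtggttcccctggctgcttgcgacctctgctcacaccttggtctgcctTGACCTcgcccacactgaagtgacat
*Erbb4*, chr1:69108060-69108309, minus strand: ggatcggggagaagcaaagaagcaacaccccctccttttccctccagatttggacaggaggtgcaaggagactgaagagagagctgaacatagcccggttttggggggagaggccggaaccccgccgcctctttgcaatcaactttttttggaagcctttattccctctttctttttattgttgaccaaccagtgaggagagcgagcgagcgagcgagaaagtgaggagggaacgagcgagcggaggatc
*Egfr*, chr11:16751953-16752202, plus strand: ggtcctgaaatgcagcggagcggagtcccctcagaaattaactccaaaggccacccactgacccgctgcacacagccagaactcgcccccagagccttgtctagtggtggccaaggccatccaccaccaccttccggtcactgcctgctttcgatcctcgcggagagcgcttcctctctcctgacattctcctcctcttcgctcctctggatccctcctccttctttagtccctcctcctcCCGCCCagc
The *Nrg4* window held 2 AGGTCA matches, both on the strand opposite to the gene and beginning 90 and 26 bases before the start, and none of the other motifs. AGGTCA occurs in 14.0% of all 32851 such windows. The *Erbb4* window held none of the 4 motifs, and the *Egfr* window held 1 GGGCGG match on the opposite strand, 9 bases before the start, a motif found in 32.7% of windows. CCAAT occurs in 33.8% and TATAAA in 12.4% of windows. The *Nrg4* start lies within the GENCODE gene rather than at its end, and windows of 5 of the 8 members were at hand.

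Within the Schwann cell-like nuclei, *Erbb4* was uneven. Cluster 1 had 5.06 UMIs per 10000 and cluster 5 had 0.817, but these clusters were mostly of 1 library each, with 523 of 702 nuclei of cluster 1 from the female and 519 of 540 of cluster 5 from the male library. With genes scaled within each library before clustering, which gave clusters with both libraries in balance, the split became sharper. Within-library cluster 16 (167 female and 186 male nuclei) had *Erbb4* at 7.46 UMIs per 10000, with 7.24 in female and 7.62 in male nuclei. Cluster 15 (175 and 182 nuclei) had 1.29 (1.13 and 1.43), and cluster 6 (197 and 331 nuclei) had 0.413 (0.811 and 0.226). All 11 myelinating Schwann cell markers were detected at 1.5-fold or more in each of these clusters. *Erbb3* did not show this order, at 1.15, 1.25 and 1.58 UMIs per 10000. Depth fell in the same order, with a median of 2704 UMIs per nucleus in cluster 16, 1823 in cluster 15 and 1596 in cluster 6. At an equal 1000 UMIs per nucleus, *Erbb4* was found in 39.4%, 9.24% and 2.49% of their nuclei.

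**Figure D3:**
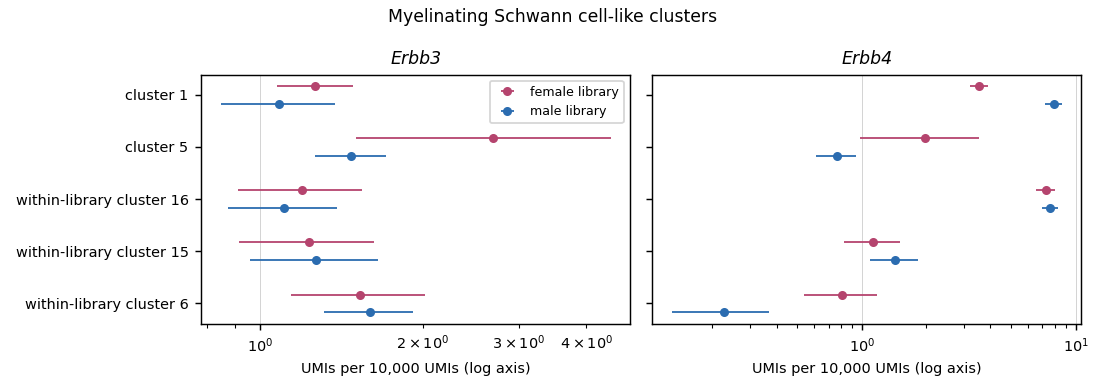
Levels of *Erbb3* and *Erbb4* (UMIs per 10000 UMIs, log axes) in the Schwann cell-like clusters, with a point and 95% Poisson interval for each library; clusters 1 and 5 come from both libraries clustered together and the within-library clusters from genes scaled in each library. *Erbb4* is at 7.24 and 7.62 in within-library cluster 16 and at or below 1.43 in clusters 15 and 6, while *Erbb3* spans 1.11 to 1.60 in these clusters.

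*Egfr* (chromosome 11, 16752203 to 16918158, plus strand) was highest in the unnamed Col25a1-led nuclei, followed by both fibroblast-like classes. Col25a1-led nuclei had 7.01 UMIs per 10000 (9.36 female, 5.94 male), fibroblast-like nuclei 5.51 (6.16 and 4.76) and barrier fibroblast-like nuclei 2.63 (2.44 and 2.79). The first pair overlapped, and barrier fibroblast-like nuclei lay below both and above all other classes, which had 1.39 or less. Within the Col25a1-led nuclei, *Egfr* was at 8.52 in cluster 15 (9.76 female, 7.49 male) and at 4.42 in cluster 18, which had 19 female and 273 male nuclei. Cluster 15 reached 3 markers of no list, and cluster 18 was kept unnamed because its leading genes and its markers pointed to different fibroblast classes. Neuron-like nuclei were again lowest, at 0.116, below macrophage-like (0.889) and Schwann cell-like nuclei (0.308). *Egfr* was detected in 67.2% of Col25a1-led and 50.1% of fibroblast-like nuclei and in 12.9% of macrophage-like nuclei, and at 1000 UMIs in 42.5%, 33.0% and 6.27%.

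**Figure D4:**
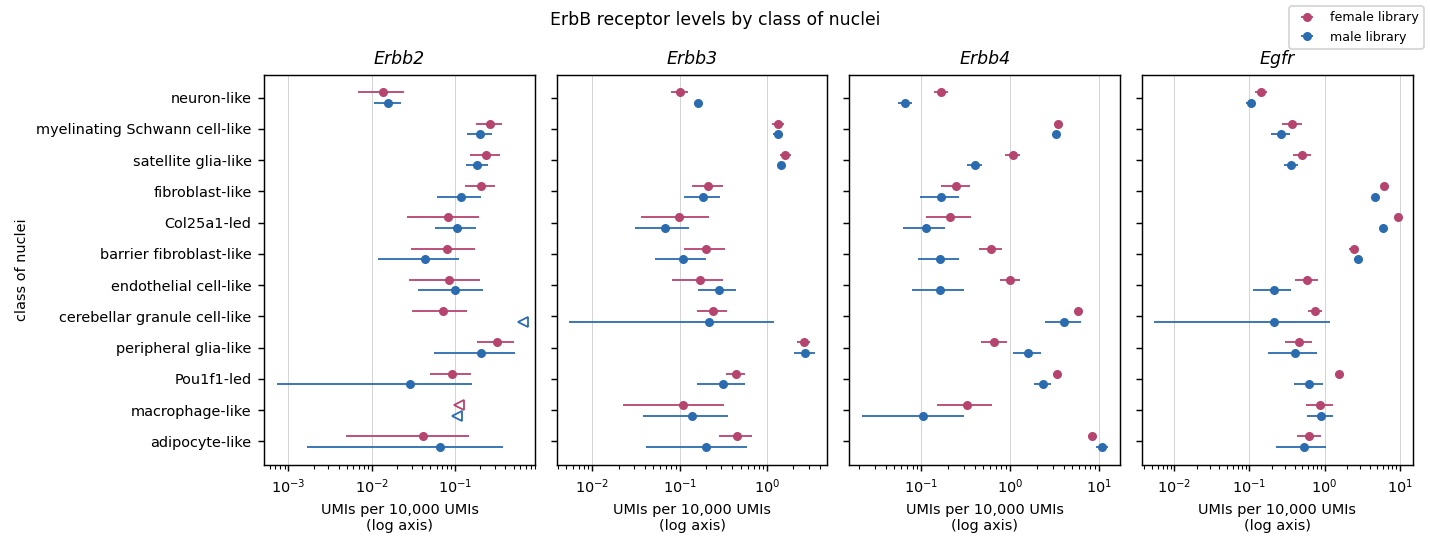
Levels of *Erbb2*, *Erbb3*, *Erbb4* and *Egfr* (UMIs per 10000 UMIs, log axes) in 12 classes of nuclei, with a point and 95% Poisson interval for each library; an open triangle marks the level of 3 UMIs where none was counted. *Erbb3* is highest in peripheral glia-like nuclei at 2.66, *Erbb4* in adipocyte-like nuclei at 8.88 and *Egfr* in Col25a1-led nuclei at 7.01, and the 3 genes are at or below 0.144 in neuron-like nuclei.

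The UMI ratios and totals of genes above were not scaled by gene length. Levels of different genes were compared here per length, since intronic reads were counted and long genes collect more of them. Per 100 kb of gene, neuron-like nuclei had 2.99 UMIs per 10000 of *Nrg3*, 0.820 of *Nrg2*, 0.736 of *Nrg1* and 0.201 of *Nrg4*. On this scale *Nrg1*, with a gene of 1069 kb, was close to *Nrg2*, with a gene of 180 kb. Peripheral glia-like nuclei had 12 of *Erbb3* against 1.13 of *Erbb2*, and adipocyte-like nuclei had 8.19 of *Nrg4* against 0.826 of *Erbb4*.

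Taking a gene as called for a class where its level was at least 2-fold above every other class in both libraries, 4 of 8 members were called, namely *Nrg1* for Pou1f1-led, *Nrg2* for granule cell-like, *Nrg3* for neuron-like and *Nrg4* for adipocyte-like nuclei, against 9.77% of 19305 genes with at least 20 UMIs. All 4 are ligands, and no receptor was called. The median log2 ratio of the highest over the next class was 1.04 over the members and 0.32 over all genes tested. Without the Pou1f1-led and granule cell-like nuclei, 4 members were called again, against 11.9% of 19076 genes, with *Nrg1* and *Nrg3* in neuron-like and *Nrg4* and *Erbb4* in adipocyte-like nuclei, so the calls of *Nrg2*, and of *Nrg1* outside neurons, rested on the nuclei left out. Of 7 other EGF-family ligands, 5 had enough UMIs and 1 was called, betacellulin (*Btc*), at 0.186 UMIs per 10000 in adipocyte-like nuclei against 0.0443 in the next class, a call that rested on 10 female and 2 male UMIs. None of 8 genes for ligand-cleaving proteases and their partners was called, among them *Adam10*, *Adam17* and *Bace1*. Of 19 adaptors and signalling proteins, *Akt2* was called, with 1.43 in adipocyte-like nuclei against 0.412. Of 11 negative regulators and scaffolds, *Errfi1*, an inhibitor of EGFR, was called, with 4.73 in barrier fibroblast-like nuclei (5.19 female, 4.36 male) against 0.661 in fibroblast-like nuclei, which had more *Egfr*. The median log2 ratios of these lists were 0.32, 0.15, 0.19 and 0.34.

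The genes most like each member were named by Pearson's r of log2(level + 0.05) over 39 sums of a cluster in 1 library, across 13422 genes. These sums share their library, depth and clustering, and no p-value is given. *Nrg1* was most like the long noncoding RNA genes *Meg3* (0.91) and *Rian* (0.88) and *Agbl4* (0.89), *Nrg2* like *Nrxn3*, *Rims2* and *Tmem163* (0.88 each), and *Nrg3* like *Ctnna2* (0.97), its overlapping neighbour *Gm20642* (0.96) and *Myt1l* (0.96). *Nrg4* was most like *Pnpla3*, *Tshr* and *Ctcflos* (0.85 each). Among receptors, *Erbb3* was most like *Gpm6b* (0.94), *Plxnb3* and *Adamts20* (0.92 each), *Erbb2* like *Itgb8* (0.89), *Gulp1* (0.87) and *Cyp39a1* (0.86), *Egfr* like *Foxd1* (0.94), *Foxd2os* (0.93) and *Foxp2* (0.92), and *Erbb4* like *Vwa8* (0.83), *Cux1* (0.78) and *Slc36a2* (0.77). Among members, r was 0.77 between *Nrg1* and *Nrg3*, 0.71 between *Erbb2* and *Erbb3* and 0.38 between *Nrg4* and *Erbb4*.

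The female and male libraries were compared within each class. Over 78 pairs of a member and a class with at least 20 UMIs, 16 differed by 2-fold or more, against 13.4% of such pairs over all genes. The level was higher in the female library in 12 of them and in the male library in 4, against 6.13% and 7.25% of pairs over all genes. In neuron-like nuclei 1 of 8 members passed, against 4.01% of all genes tested there. It was *Erbb4*, at 0.167 in female and 0.0663 in male nuclei, a log2 ratio of male over female of -1.33 (-1.70 to -0.97), with 29.5% of the male UMIs in 1 nucleus. Without the nucleus with the most *Erbb4* UMIs in each library, this log2 ratio went to -1.74. The main neuronal members differed less, with a log2 ratio of -0.25 for *Nrg1* and -0.15 for *Nrg3*.

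In satellite glia-like nuclei 2 of 7 members passed, against 9.03% of genes. *Nrg3* was at 1.35 in female and 3.05 in male nuclei, a log2 ratio of 1.18, beside neuron markers at a summed level of 31.8 and 54.2, and their part in it was not tested. *Erbb4* was at 1.07 and 0.40, a log2 ratio of -1.42. As the mean over the clusters of the class, both fell short of 2-fold, at 0.32 for *Nrg3* and 0.078 for *Erbb4*. *Erbb4* was also lower in the male library in barrier fibroblast-like nuclei (0.613 and 0.163, with 2 of 6 members past 2-fold against 11.3%) and endothelial cell-like nuclei (1.0 and 0.164, with 2 of 6 against 13.1%), and higher in it in peripheral glia-like nuclei (0.664 and 1.58, with 1 of 7 against 9.44%). In the last class 1 nucleus held 11 of the 31 male UMIs, and without the top nucleus of each library the log2 ratio went from 1.25 to 0.91, short of 2-fold. In endothelial cell-like nuclei 1 nucleus held 26 of the 59 female UMIs, and the log2 ratio went from -2.62 to -2.30 in the same way. In Schwann cell-like nuclei, where *Erbb4* had 1037 UMIs, none of 7 members passed, against 6.0%, and its levels were 3.47 and 3.28. In fibroblast-like nuclei none of 7 passed, against 11.4%.

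Markers of several other cell types differed between the libraries beside these values. The summed level of the 8 granule cell markers was 0.339 in female and 0.0881 in male neuron-like nuclei, 0.688 and 0.125 in satellite glia-like nuclei and 1.06 and 0.147 in endothelial cell-like nuclei, in which *Gabra6*, *Cbln1*, *Neurod1* and *Grin2c* were at 0 in the male library. It was 0.769 and 0.138 in macrophage-like nuclei, where *Erbb4* was at 0.330 and 0.104, and 0.673 and 0.104 in Schwann cell-like nuclei. Adipocyte markers, from the class with the most *Erbb4*, were at a summed 0.921 in female and 0.499 in male neuron-like nuclei, 1.26 and 0.413 in satellite glia-like, 3.49 and 0.654 in endothelial cell-like and 2.34 and 0.636 in Schwann cell-like nuclei. Pituitary cell markers were at 2.21 and 0.471 in satellite glia-like nuclei. The gap in granule cell markers was smaller in barrier fibroblast-like nuclei, at 2.32 and 1.38, with adipocyte markers at 2.29 and 0.683. Granule cell markers were at 1.28 and 0.786 in fibroblast-like and at 2.20 and 1.73 in Col25a1-led nuclei, where *Erbb4* fell short of 2-fold. In peripheral glia-like nuclei, where *Erbb4* was higher in the male library, granule cell markers were at 0.535 and 0.102 and adipocyte markers at 2.47 and 0.562. The part of RNA from these cells in the *Erbb4* differences was not tested.

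Backgrounds were higher in several other classes. In Pou1f1-led nuclei 3 of 7 members passed, against 22.7%, with *Nrg1* higher and *Nrg2* (1.98 and 0.456) and *Egfr* (1.56 and 0.627) lower in the male library, beside pituitary markers at a summed 8.55 in female and 19.3 in male nuclei. The libraries differed in the sub-clusters of this class. Sub-cluster 1 held 53 of 101 male and 17 of 215 female nuclei, and *Nrg1* there was at 83.0 in female and 100.3 in male nuclei. Sub-cluster 5, with *Nrg1* at 91.8, held 2 of the male and 40 of the female nuclei. In granule cell-like nuclei *Egfr* alone passed of 7, on 1 male UMI, against 40.0%. In macrophage-like nuclei *Nrg1* passed of 4 members, against 15.8%, at 0.550 and 2.90, and without the nucleus with the most UMIs in each library the log2 ratio went from 2.40 to 1.03. In adipocyte-like nuclei 2 of 7 passed, against 19.4%: *Erbb3* on 22 and 3 UMIs, and *Nrg2* on 25 and 0 UMIs. With 3 UMIs as the male limit, *Nrg2* was 2.55-fold lower in the male library. The interval of its log2 ratio reached up to -0.944, short of 2-fold. In Col25a1-led nuclei *Nrg2* passed of 5 members, against 13.8%, at 0.279 and 0.0902, and its log2 ratio of -1.63 came to -0.997 without the top nucleus of each library, short of 2-fold. *Nrg2* also passed in barrier fibroblast-like nuclei (0.173 and 0.0759), on 13 and 7 UMIs, with a log2 ratio of -1.19 whose interval held 0 (-2.76 to 0.24). *Egfr* passed in endothelial cell-like nuclei (0.579 and 0.213), on 34 and 13 UMIs.

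**Figure D5:**
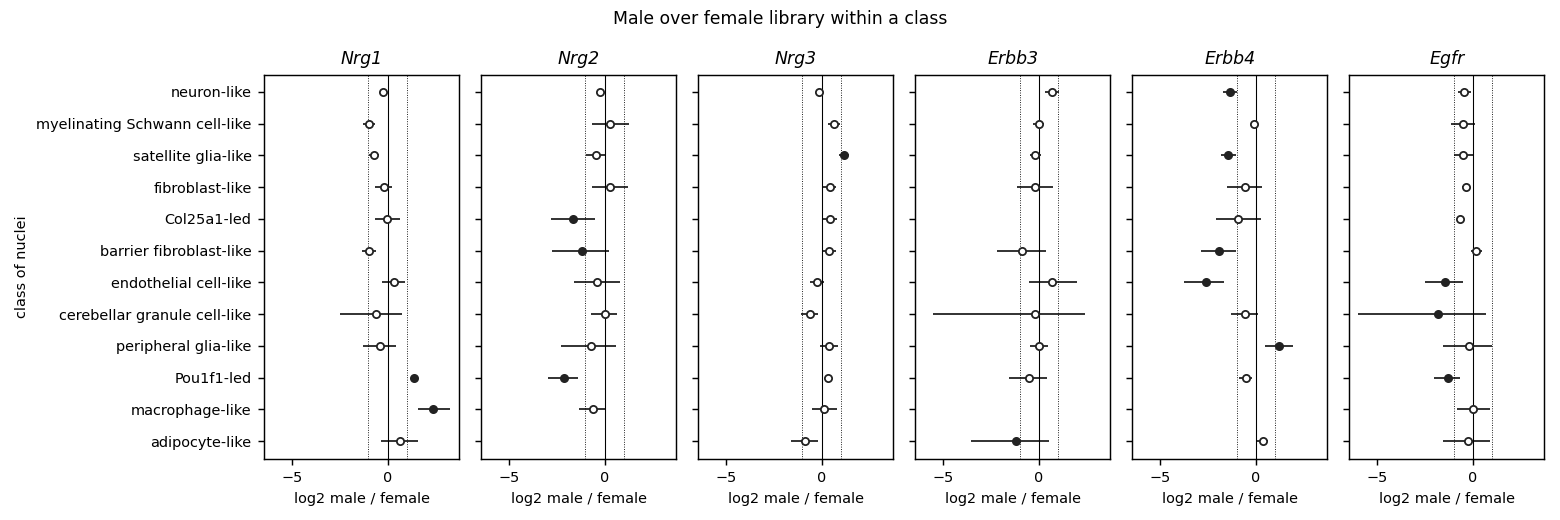
Log2 ratio of the male over the female library for 6 members in 12 classes, with intervals from the exact binomial split of UMIs; filled points are past 2-fold, dotted lines mark 2-fold, an interval past -6 is drawn to -6, and *Nrg2* in adipocyte-like nuclei, with 0 male UMIs, is not drawn. *Erbb4* is past 2-fold in 5 classes, lower in the male library in 4 of them and higher in peripheral glia-like nuclei.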

How the data were processed

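RNA was counted in nuclei of 1 female and 1 male library of pooled vagus nerve ganglia. The deposited values are UMI counts per gene and nucleus, which the authors made with Cell Ranger 7.1.0 on mm10 with introns included, after keeping barcodes by a debris score, gene number and UMI number. The authors joined the libraries with depth normalization, so the counts are not all those sequenced, and removed possible doublets before deposit. No source used here gives the annotation release. Gene positions come from GENCODE vM21 on the same build.

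The female library held 17435300 UMIs and the male library 27529730. Barcodes carry a library number, and each number was given its sex because its count of nuclei equals the one stated for that sex. *Xist* (13424 female and 7 male UMIs) and *Ddx3y* (12 and 1789) were checked for it. The members and gene lists were chosen with earlier results of these data known. Counts were scaled to the median nucleus, log2(1 + value) was taken, and 23432 genes seen in at least 3 nuclei went into 10 principal components, 243 neighbours and Louvain clustering (resolution 3.3, 20 clusters, igraph 0.11.9). The members, the pathway lists (except *Nrd1*), sex-linked genes and a supplementary list of the study, 171 genes, were left out. A cluster was named where at least 3 markers of 10 or more UMIs reached 1.5-fold. All members were named in the text, as were genes of 4 pathway lists past the 2-fold rule (at most 4 per list) and the 3 genes most like each member. Likeness used genes of at least 200 UMIs and sums of at least 20 nuclei. Poisson and Clopper-Pearson intervals (95%) cover counting error only, and 3 UMIs were the floor. Nuclei of under 1000 UMIs (19) were left out of shares at equal depth. Analyses used Python 3.11.15, scipy 1.17.1 and edgeR 4.0.16 (TMM factors on sums only), and rules were tested on simulated data.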

Additional observations from a re-analysis of the deposited data

How the results depend on the processing

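For each member the ratio of its highest class over the class next to it in the main analysis kept its sign under every alternative run, each with 1 choice changed, and 72 of 91 values stayed within the spread between libraries or, for counts, within 1.5 times the main count. The log2 ratio of highest over next class became 3.23 for *Nrg2* (from 1.34), 1.80 for *Nrg3* (1.26), 0.050 for *Erbb2* (0.35) and 1.40 for *Erbb4* (0.62) in the male library alone, and 5.19 for *Nrg4* (5.14) and 0.60 for *Egfr* (0.35) in the female library alone. For *Nrg4*, whose libraries differed little, it was 5.21 as a mean over nuclei, 4.92 with TMM factors, 5.17 as a mean of log2 levels, 5.09 in nuclei of over 2000 UMIs, 5.41 without the deepest nuclei, 5.21 with genes scaled within libraries and 5.31 without the nucleus with the most UMIs of the gene in each class and library, an alternative chosen after seeing the data, as was leaving out the Pou1f1-led and granule cell-like nuclei. It was 0.67 for *Erbb3* with TMM factors (0.83), 0.16 for *Erbb2* as a mean of log2 levels, and for *Egfr* 0.58 with genes scaled within libraries and 0.86 with about 12 clusters. TMM factors ran from 0.831 to 1.24. The next class was kept from the main analysis in every run. In the male library, the class after the highest was instead neuron-like for *Nrg2* (1.40 against 4.28). For *Nrg3* it was Pou1f1-led (12.3 against 32.0), so the larger male ratios of these 2 genes rest on the kept class. For *Nrg4* it was Pou1f1-led too (0.342 against 7.62), so the small difference between its library ratios also rests on the kept class. With 3-fold in place of 2-fold, 1 member was called (*Nrg4*) and 1031 genes, and with 1.5-fold 5 members and 3034 genes, against 4 and 1887. Without a minimum of UMIs, 25 pairs of a member and a class passed 2-fold between libraries, against 16. The log2 ratio of *Erbb4* in satellite glia-like nuclei, male over female, turned from -1.42 to 0.078 as a mean over clusters. Causes were not tested. Clusterings without a class of the same name gave no value for it. With genes scaled within libraries this left out *Erbb2* and *Erbb3*, and with about 12 clusters every member but *Nrg3* and *Egfr*. Depth limits *Erbb2* most, at 301 UMIs. No paired analysis was possible because each sex has 1 library.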
